A study of Mus musculus with 39 samples.

Results

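H3K27me3 is the trimethylated form of lysine 27 of histone H3. It is written by Polycomb repressive complex 2 (PRC2), whose catalytic subunit is usually EZH2, and it marks silent developmental genes. KDM6A, also called UTX, is a demethylase that removes it and is encoded on the X chromosome. ATAC-seq maps open chromatin through the sites a transposase can reach, so a stretch that carries H3K27me3 and yields no ATAC peak is closed by this measure.

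The regions described here carried an H3K27me3 peak in all 5 H3K27me3 libraries of sorted mouse spermatogonia and no ATAC peak in any of 5 ATAC libraries. The H3K27me3 peaks of the 5 libraries merged into 23570 regions, of which 4320 were overlapped by a peak of every library. An IgG control library had a peak in 765 of those, which left 3555 shared regions. ATAC peaks overlapped 2317 of the shared regions, and the remaining 1238 are the closed regions, where 1 bp counted as overlap. The regions were thus chosen by the measured peak positions of both assays, and the number, H3K27me3 presence and ATAC absence of the regions are descriptions of that choice.

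All chromatin libraries came from cKIT+ spermatogonia sorted from mouse testis. KIT is a surface receptor of differentiating spermatogonia. Control libraries were Kdm6a fl/y and Cre-, so they carry the floxed allele without recombination, and conditional knockout (cKO) libraries were Kdm6a fl/y and Ddx4-Cre+, in which Ddx4-Cre acts in germ cells. There were 2 control and 3 cKO libraries for H3K27me3 (CUT&Tag, an antibody-directed tagging of chromatin) and likewise 2 and 3 for ATAC-seq, with 1 control library for IgG. The single-cell RNA libraries were 1 control and 1 cKO from whole testis of the same genotypes. No source used here gives the ages of the mice or says whether libraries came from separate animals, so p-values measure the spread between these libraries, which may be technical.

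The libraries differed in how much was called. The H3K27me3 lists held 11118 to 18494 peaks over 21.3 to 81.3 Mb, and the ATAC lists held 14635 to 40497 peaks. The names inside the peak list labelled cKO 1 for ATAC begin as those of control 1 do, although only 7 intervals of the 2 lists are identical. Without the first list there would be 1268 closed regions, and without the second 1247. Of 23 spermatogonial genes, 9 had an ATAC peak at a promoter in all 5 libraries and 4 had none in any. For 25 meiotic genes the counts were 15 and 4, for 9 Sertoli and Leydig cell genes 1 and 4, and for the 17492 coding genes with a promoter in the set used 5740 and 7123.

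The promoters below are those of 6 genes that start in closed regions, followed by Hoxd10, a patterning gene whose shared H3K27me3 region does hold ATAC peaks. Hoxd10 was taken as the Hox gene in such regions with promoter peaks in the most ATAC libraries, ties going by symbol. The promoters are shown because CpG content was one of the features by which closed starts and other starts differed. Each is the 250 bases before the gene start from RefSeq GRCm38.p6, 5′ to 3′ in the direction of the gene, with CG dinucleotides, which read alike on both strands, in capitals.
Fgf4, chr7:144861136-144861385 (+): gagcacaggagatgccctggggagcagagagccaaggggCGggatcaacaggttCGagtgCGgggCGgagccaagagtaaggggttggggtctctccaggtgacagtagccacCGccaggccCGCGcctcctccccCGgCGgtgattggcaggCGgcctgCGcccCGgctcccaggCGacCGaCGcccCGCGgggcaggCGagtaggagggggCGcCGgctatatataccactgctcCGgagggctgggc
Hand2, chr8:57320733-57320982 (+): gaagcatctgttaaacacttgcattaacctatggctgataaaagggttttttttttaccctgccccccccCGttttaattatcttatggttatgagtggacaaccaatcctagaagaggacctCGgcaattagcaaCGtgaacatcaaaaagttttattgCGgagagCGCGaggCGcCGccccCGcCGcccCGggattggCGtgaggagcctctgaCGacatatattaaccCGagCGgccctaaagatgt
Pou5f1, chr17:35505782-35506031 (+): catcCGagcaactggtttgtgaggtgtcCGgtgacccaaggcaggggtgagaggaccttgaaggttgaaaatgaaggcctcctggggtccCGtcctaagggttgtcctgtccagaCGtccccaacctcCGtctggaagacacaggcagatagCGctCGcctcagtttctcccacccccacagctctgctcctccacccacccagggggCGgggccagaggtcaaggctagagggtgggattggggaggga
Gfi1b, chr2:28621983-28622232 (-): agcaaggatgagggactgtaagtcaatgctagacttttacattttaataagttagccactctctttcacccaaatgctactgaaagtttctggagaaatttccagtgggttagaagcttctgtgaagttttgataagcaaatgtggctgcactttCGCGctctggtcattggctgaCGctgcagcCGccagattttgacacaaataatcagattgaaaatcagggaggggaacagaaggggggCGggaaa
Foxi2, chr7:135410117-135410366 (+): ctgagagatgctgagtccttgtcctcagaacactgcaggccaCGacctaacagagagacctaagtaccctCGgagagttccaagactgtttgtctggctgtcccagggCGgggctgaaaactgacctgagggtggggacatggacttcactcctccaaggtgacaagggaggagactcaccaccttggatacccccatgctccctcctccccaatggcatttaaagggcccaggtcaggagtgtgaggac
Nhlh1, chr1:172057597-172057846 (-): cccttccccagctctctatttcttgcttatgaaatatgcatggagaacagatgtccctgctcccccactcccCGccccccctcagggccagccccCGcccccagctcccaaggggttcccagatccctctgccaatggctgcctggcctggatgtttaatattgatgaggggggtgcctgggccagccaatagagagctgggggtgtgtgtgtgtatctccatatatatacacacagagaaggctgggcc
Hoxd10, chr2:74691641-74691890 (+): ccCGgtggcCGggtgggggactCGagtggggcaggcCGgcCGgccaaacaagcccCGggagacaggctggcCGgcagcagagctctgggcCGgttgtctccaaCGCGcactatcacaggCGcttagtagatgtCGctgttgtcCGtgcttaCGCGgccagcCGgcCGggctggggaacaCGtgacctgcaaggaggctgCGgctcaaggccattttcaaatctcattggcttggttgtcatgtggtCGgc

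These 7 promoters differed in CpG content, from 2 to 21 CG in the 250 bases. Fgf4, a fibroblast growth factor of the early embryo, had 21 CG in the 250 bases, and Hand2, a basic helix-loop-helix factor of heart and limb, had 15. Pou5f1, the pluripotency factor OCT4, had 8 and Gfi1b, a repressor of the blood lineage, had 5. Foxi2, a forkhead factor, had 3 and Nhlh1, a neuronal basic helix-loop-helix factor, had 2. Hoxd10 had 20, and 4 of 5 ATAC libraries had a peak at its promoter.

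The closed regions were broad and covered unevenly. Their median length was 7435 bp (range 459 to 74589 bp), against 8541 bp for the 2317 shared regions with an ATAC peak, and together they spanned 10.5 Mb. The merged length overstates what any library showed. In control 1 and control 2, peaks covered a median of 3902 and 6233 bp of a closed region. In cKO 1, cKO 2 and cKO 3 they covered 2008, 2581 and 5485 bp. Control 2 and cKO 3 had the most covered bases, and cKO 1 and cKO 2 lay below both controls.

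Requiring the same bases in every library left much less. Of the 1238 closed regions, 985 (79.6%) held bases that lay in a peak of all 5 libraries, and the median share of such bases was 16.1% of the region. Among shared regions with an ATAC peak, 2079 of 2317 (89.7%) held such bases and the median share was 23.4%. The positions of highest signal of all 5 libraries lay within 500 bp of each other in 86 closed regions (6.95%).

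**Figure D1:**
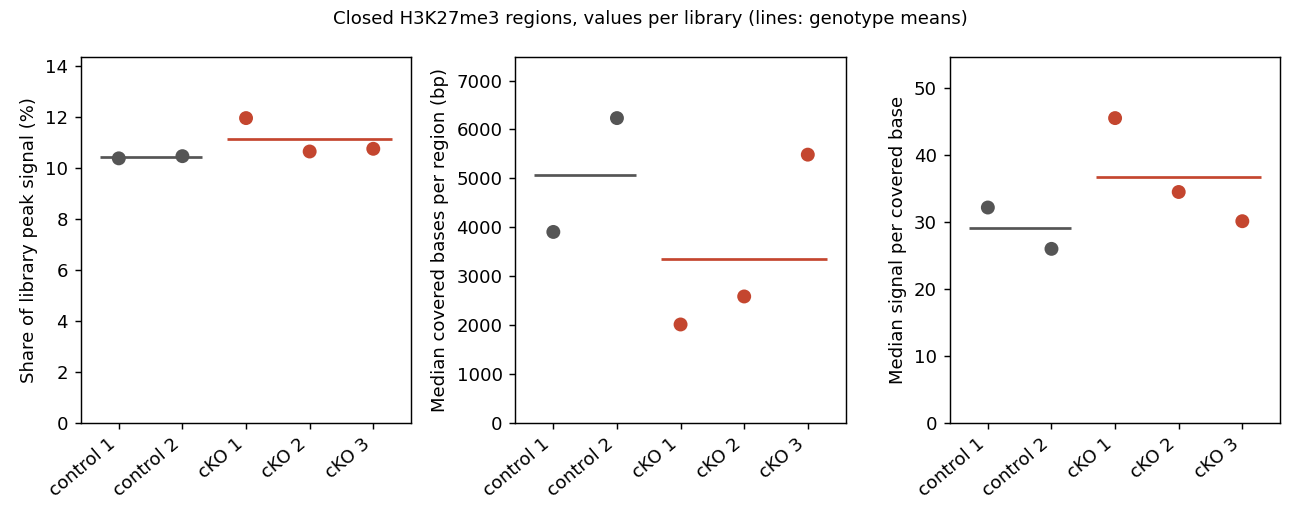
Closed H3K27me3 regions in each of 5 libraries: the share of the library's summed peak signal (%), the median covered bases per region (bp) and the median signal per covered base (authors' coverage units). Points are libraries (grey control, red cKO) and lines are genotype means; control 2 and cKO 3 have the most covered bases and the lowest signal per base.

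The closed regions held 10.4% and 10.5% of all peak signal in the control libraries and 12.0%, 10.6% and 10.8% in cKO 1, cKO 2 and cKO 3. The groups did not overlap, with means of 10.4% ± 0.06 (SD, n = 2) and 11.1% ± 0.73 (SD, n = 3). The difference of 0.70 percentage points had p = 0.3 in a two-sided exact permutation test over all 10 assignments of the libraries, which cannot give less than 0.1, and was 0.28 points without cKO 1. In shared regions with an ATAC peak the shares were 36.9% and 31.8% in control and 42.1%, 36.9% and 34.5% in cKO. cKO 1, the shortest list, was again highest. Every region needed a peak in each library, so the share is tied to that rule, and the test cannot set genotype apart from list length. The median covered length was 5068 bp ± 1648 (SD, n = 2) in control and 3358 bp ± 1864 (SD, n = 3) in cKO, and these groups overlapped (exact permutation p = 0.4, two-sided). The difference of -1710 bp was -544 bp without control 2 and -1035 bp without cKO 1, and it was -2875 bp without control 1 and -2773 bp without cKO 3. Covered length was not particular to closed regions. In shared regions with an ATAC peak the medians were 5221 and 7242 bp in control and 2699, 3555 and 6764 bp in cKO. The libraries stood in the same order there, and also by the total bases their lists covered, from 21.3 Mb in cKO 1 to 81.3 Mb in control 2. With signal per covered base and the signal ratio to shared regions with an ATAC peak, 4 such measures were tested, and the lowest p adjusted over them by Benjamini-Hochberg was 0.533 (exact permutation).

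Distance to open chromatin varied widely. The nearest ATAC peak of any library lay a median of 6488 bp from a closed region. It lay within 5000 bp for 536 regions (43.3%) and beyond 50000 bp for 45. The closest closed region was 18 bp from an ATAC peak and 9 were within 100 bp. On the other side of the threshold, the smallest ATAC overlap of an excluded shared region was 10 bp and 7 had under 100 bp. The lists give no read depth, so a missing ATAC peak means only that none was called. Membership rested heavily on 1 ATAC library. Of 602 shared regions with ATAC peaks of exactly 1 library, 403 had them in cKO 3, the longest list, and without that library the closed regions would number 1641. Likewise 1294 merged regions free of IgG and ATAC peaks had H3K27me3 peaks in 4 of 5 libraries, and 731 of those lacked the peak in cKO 1, the shortest list.

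Of the 5 closed regions farthest from any ATAC peak, 4 lay close together on chromosome 17 and 1 on chromosome 14. The farthest, chr17:6477880-6491953, was 242692 bp from the nearest ATAC peak. Its summed signal was 242712 and 256376 in the control libraries and 167343, 404713 and 341826 in the cKO libraries. These sums overlapped, while after centring the controls stood at 0.52 and 0.40 log2 and the cKO libraries at 0.56, 1.80 and 0.68. Its nearest coding start in the set used, which lacks some genes, was that of Gm2808, 44061 bp away. Chromosome 17 held 88 closed regions (7.11%, against 4.82% of all merged regions) and the X chromosome held 8 (0.646%, against 0.475%). X peaks made up 0.31% to 0.44% of each H3K27me3 list. The 8 on X included the starts of Sowahd and Ptchd1.

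Most closed regions held none of the gene starts used. Outside chromosome 18, for which promoters were not analysed here, 150 of 1207 closed regions (12.4%) held the start of a coding gene, against 903 of 2234 shared regions with an ATAC peak (40.4%). A further 538 (44.6%) overlapped a coding gene but held no such start, 449 of the 1207 lay wholly within 1 coding gene, and 519 (43.0%) overlapped none. The rule shuts out regions with an ATAC peak, and 56.7% of all promoters had one. The rule itself thus lowers the share of closed regions that hold a start. The regions with an ATAC peak were also longer, with a median of 8541 bp against 7435 bp. The difference in share was not tested. The starts used cover 17492 coding genes and lack some on other chromosomes too. For a closed region that overlaps Egr3, the nearest start used lay 527063 bp away. Starts can therefore be undercounted and nearest distances too long. Counted in windows of 1 Mb, 64 windows held 5 or more closed regions, and 419 of the 1238 lay in them; other regions were not counted this way. The fullest window, chr4:154000001-155000000, held 14.

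The promoters inside closed regions had the lowest median CpG count of the 4 classes compared. Over a window of 300 bp, from 250 bases before to 50 after the start, the 177 promoters of 153 coding genes in closed regions had a median of 7 CG (quartiles 3 and 17). The 1121 promoters in shared regions with an ATAC peak had a median of 16, the 1793 in other H3K27me3 regions had 10, and the 18172 promoters in no H3K27me3 region had 13. At least 15 CG were present in 27.7% of closed promoters, in 54.7% of promoters in regions with an ATAC peak, in 37.6% of those in other H3K27me3 regions and in 46.8% of all 21263 promoters. At most 5 CG were present in 39.0%, 13.6%, 30.1% and 32.3%. No closed promoter had an ATAC peak, which follows largely from the rule. An ATAC peak lay at 59.2% of promoters in regions with an ATAC peak, 48.7% of those in other H3K27me3 regions and 57.9% of those in none. No class made only of promoters without ATAC peaks was compared with the closed ones. The CpG counts describe the sequences and were not tested.

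**Figure D2:**
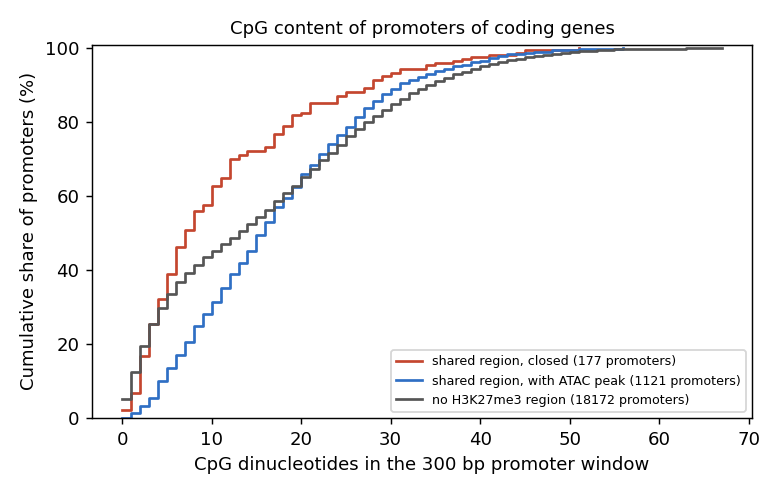
Cumulative share of promoters (%) against the number of CpG dinucleotides in a window of 300 bp, for promoters in closed shared regions, in shared regions with an ATAC peak and in no H3K27me3 region. The closed curve rises first: its median is 7 CG, against 16 and 13.

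For lists of developmental regulators, the usual Polycomb targets, the genes that started in closed regions were counted, and no difference between lists was tested. Genes that start in the same region were counted separately. None of the 22 Hox genes in the set of starts used, which lacks some genes, started in a closed region. Of these genes, which pattern the body axis, 16 started in a shared region with an ATAC peak. The counts for 76 other homeobox genes were 0 and 58. An ATAC peak in the region need not lie at the promoter. Of 18 Hox promoters in such regions 9 had an ATAC peak, as did 32 of 66 promoters of the other homeobox genes. Of all 1121 promoters in such regions, 664 (59.2%) had one. Of 30 basic helix-loop-helix lineage genes 2 started in closed regions (Hand2 and Nhlh1) and 15 in regions with an ATAC peak. Of 55 forkhead, GATA, T-box and SOX genes the counts were 1 (Foxi2) and 21. The signalling ligands gave 3 of 57 (Bmp4, Fgf4 and Fgf6) against 20, and zinc-finger lineage factors gave 2 of 39 (Gfi1b and Zic4) against 13. Over the 17492 coding genes with a start in the set used, 153 (0.875%) started in closed regions and 967 (5.53%) in regions with an ATAC peak. The counts of 0 for Hox and other homeobox genes in closed regions lie near that share of 0.875%.

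Among 23 spermatogonial genes, 1 (Pou5f1, 4.35%) started in a closed region. None of the listed 25 meiotic, 20 spermatid, 9 Sertoli and Leydig, 27 Rhox, 17 imprinted or 13 KDM6 and PRC2 genes did. The share over all coding genes was 0.875%, so counts of 0 in lists this short lie near it. The lists are not complete: Dio3, an imprinted gene outside the list of 17, started in a closed region at the 97.6th percentile of signal.

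The region of highest signal was also the longest. It spanned chr17:35402437-35477025 (74589 bp) and held the starts of H2-Q6, H2-Q7 and H2-Q10, nonclassical class I genes of the major histocompatibility complex. Summed signal there was 2590234 and 2618732 in control and 2085340, 2117585 and 2987386 in cKO, which overlap. H2-Q genes are close copies of each other, so the assignment of reads among them is uncertain.

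The next highest regions lay at single genes or between genes. The region chr2:165234905-165265660 within Cdh22, a cadherin, ended 168 bp from its start, and the nearest ATAC peak lay 117 bp from the region. Its summed signal was 1304764 and 1350966 in control and 1064113, 1039481 and 1334987 in cKO. The region over the lncRNA Fendrr, chr8:121067992-121084043, had 1368608 and 1276853 in control and 1212682, 890417 and 1258999 in cKO. In these sums both control libraries were higher than every cKO library at Fendrr, and at Cdh22 cKO 3 lay between the controls. After centring, Fendrr stood at 3.01 and 2.71 log2 in control and 3.42, 2.93 and 2.56 in cKO, so the genotypes overlapped. The region at Kcnj4, an inward-rectifier potassium channel, spanned chr15:79486922-79505328 with 756998 and 881341 in control and 729925, 672124 and 889037 in cKO. At Stra6, the receptor for retinol-binding protein (chr9:58123539-58153605), the values were 647372 and 814459 in control and 685214, 534850 and 885143 in cKO. The libraries of the genotypes overlapped at both. The other 5 of the 10 highest were within Sptbn4, Rbfox3 and Zfp469, over the noncoding Gm26553 and Platr30, and 39374 bp from the start of Neurl1b.

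The regions of listed genes spanned much of the signal range. At Foxi2 (chr7:135407479-135413662) summed signal was 452561 and 337624 in control and 320187, 202948 and 461912 in cKO, a mean rank at the 92.5th percentile of closed regions. At Fgf4 (chr7:144858018-144869828) it was 264100 and 454331 in control and 244476, 342140 and 367519 in cKO. At Pou5f1 (chr17:35502428-35510181) it was 256712 and 295734 in control and 311889, 126537 and 280390 in cKO. These 3 were the highest of the regions of listed genes. At Hand2 (chr8:57316391-57321688) it was 198607 and 254252 in control and 102103, 140120 and 274493 in cKO. At Gfi1b (chr2:28620817-28632445) it was 105206 and 217538 in control and 48413, 115927 and 159844 in cKO. At Nhlh1 (chr1:172055927-172057767) it was 49263 and 43275 in control and 44985, 56092 and 60274 in cKO, near the low end of the closed regions. In each of these 6 regions the libraries of the 2 genotypes overlapped. The region of Fgf6, another fibroblast growth factor, had 278489 and 317725 in control and 95728, 104600 and 427690 in cKO, so the cKO libraries fell on both sides of the controls. At Bmp4, a bone morphogenetic protein, the values were 87737 and 49041 in control and 68313, 50142 and 74466 in cKO. At Zic4, a zinc-finger factor of the cerebellum, they were 169706 and 175951 in control and 128918, 114088 and 166025 in cKO, all 3 below the controls. After centring, Zic4 stood at 0.0025 and -0.15 log2 in control and 0.18, -0.03 and -0.36 in cKO, which overlap.

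**Figure D3:**
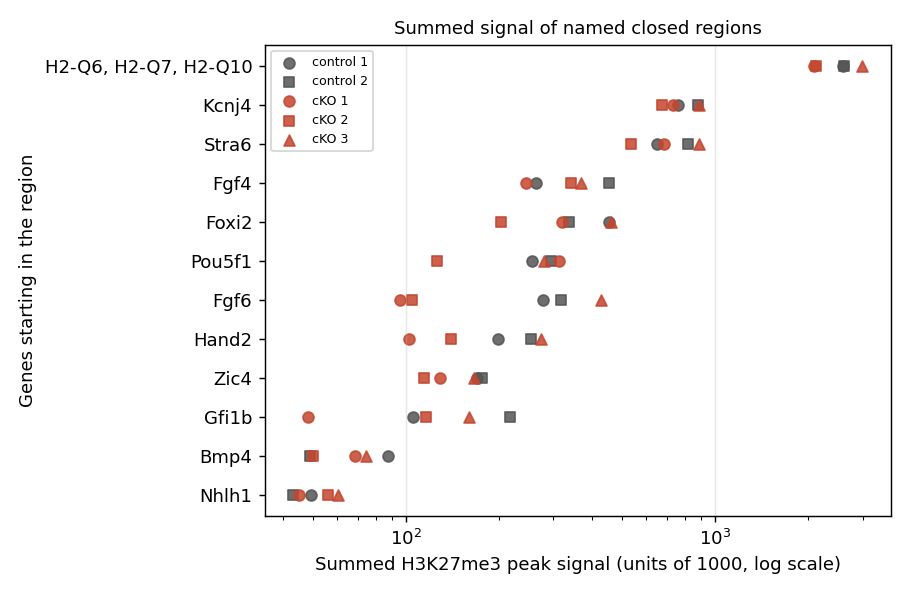
Summed H3K27me3 peak signal (in units of 1000, log scale) of closed regions that hold a start of a listed gene or belong to the highest, 1 row per region and 1 point per library (grey control, red cKO). The H2-Q region lies far to the right of the other regions drawn, and control and cKO points intermix in most of the rows drawn.

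The comparison of cKO with control asks whether loss of Kdm6a changed the mark. Only regions with a peak in every library were tested, so a region that lost or gained its peak in cKO could not enter. No closed region passed the test. The limma fit on log2 summed signal, centred on each library's median, called 0 of 3555 shared regions at an adjusted p below 0.05 (0.0%) and so 0 of the 1238. At an unadjusted p below 0.05, 37 closed regions were higher in cKO (2.99%, against 2.28% of all tested) and 30 were lower (2.42%, against 1.86%). The libraries of the genotypes did not overlap in 129 closed regions with higher cKO values (10.4%, background 9.76%) and in 107 with lower ones (8.64%, background 7.06%). These shares lie near the background. With no centring the counts at that p were 2 higher and 45 lower, against 4 and 100 of all shared regions. The median difference of closed regions was 0.03 log2, against 0.06 over all shared regions. Centring sets both near 0: with no centring they were -0.33 and -0.30, so the sign turned, and 275 of the 1238 closed regions were positive in place of 668. With centring, 90% of closed regions lay between -0.75 and 0.76. The median standard error was 0.48 log2. Fewer marked cells and less mark per cell cannot be told apart in these sorted populations.

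**Figure D4:**
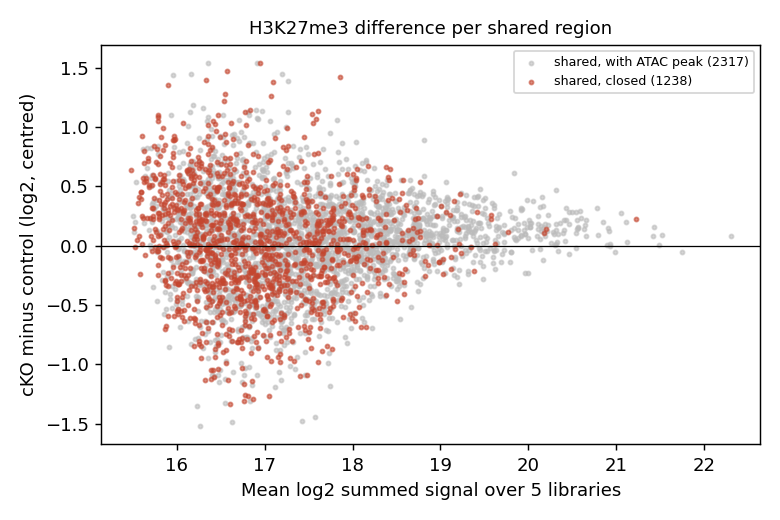
Difference in H3K27me3 (cKO minus control, log2, centred) against the mean log2 summed signal over 5 libraries, 1 point per shared region. Closed regions (red) and shared regions with an ATAC peak (grey) centre near 0, with medians of 0.03 for closed and 0.06 for all, and none was called.

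Of the regions with separated libraries, those with the smallest unadjusted p did not pass adjustment. The region chr17:86823193-86831232 within Epas1, a hypoxia-inducible factor, had summed signal of 48806 and 123695 in control and 101623, 194727 and 274580 in cKO. After centring, every cKO library was higher, by 1.54 ± 0.50 log2 (SE; limma, adjusted p = 0.67). At chr5:36921098-36925357 within Ppp2r2c, a phosphatase subunit, it was 45916 and 35507 in control and 55385, 75469 and 124154 in cKO, a difference of 1.36 ± 0.44 log2 (SE; limma, adjusted p = 0.67). At chr11:120242317-120254259 within Bahcc1 the difference was 1.38 ± 0.48 log2 (SE; limma, adjusted p = 0.91), with control 1 at 48599 and the other 4 libraries between 142159 and 240725. It was 0.56 without control 1, 2.19 without control 2, 0.24 on the highest signal and 0.15 per covered base. For Epas1 the values were 0.97 without control 1, 0.74 on the highest signal and 0.45 per covered base, and for Ppp2r2c the latter 2 were 0.78 and 0.57.

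Lower in cKO, by the same rule, was chr14:70082480-70095174 at Egr3, an early growth response factor. Its values were 340736 and 328063 in control and 44559, 125548 and 327595 in cKO, a difference of -1.09 ± 0.42 log2 (SE; limma, adjusted p = 0.996). Control 2 and cKO 3 were nearly equal before centring, and the difference was -0.52 without cKO 1, -0.13 on the highest signal and -0.21 per covered base. Of the starts used, that of Gabbr2, a GABA receptor subunit, lay nearest to chr4:47002577-47015281. This region had 245934 and 289387 in control and 99885, 41578 and 154726 in cKO, a difference of -1.27 ± 0.49 log2 (SE; limma, adjusted p = 0.996). It turned to 0.033 on the highest signal and was -0.034 per covered base. At chr7:132364703-132377447, where the nearest start used was that of Chst15, the difference was -1.34 ± 0.52 log2 (SE; limma, adjusted p = 0.996), and it was -0.19 on the highest signal and -0.11 per covered base.

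RNA of the genes that start in closed regions was read in spermatogonia-like cells of whole testis, a cluster named from markers, with 284 control and 234 cKO cells and 1870846 and 1398740 unique molecular identifiers (UMIs). With 1 library per genotype there is no test. The cluster held Kit at 146 CPM (UMIs of a gene scaled to a common total), Stra8 at 190 and Dmrt1 at 191 in control, and Kdm6a at 22.4 CPM in control and 9.29 in cKO. The 3′ tags read here need not lie in the deleted part of Kdm6a. The cluster also held Prm1, a spermatid gene, at 4415 CPM, against 14258 in barcodes of at most 100 UMIs, taken as free RNA. The single-cell libraries share 23 cell barcodes.

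Few UMIs were read from these genes. Of 150 measured, 77 (51.3%) had 0 UMIs in control and 85 (56.7%) in cKO, and 62 had 0 in both. In control, 37.1% of genes in shared regions with an ATAC peak and 25.5% of genes in no H3K27me3 region had 0 UMIs. The limit set for a count of 0, which is 3 UMIs, stands at 1.60 CPM in control and 2.14 in cKO and covers counting error only. The two-sided 95% Poisson interval of a gene at 0, such as Fgf4, reaches 1.97 and 2.64 CPM. The median was 0 CPM in both libraries. At 10 CPM or more stood 10 genes (6.67%) in control and 9 (6.00%) in cKO, all 9 among the 10. With gene starts within 1000 bp of a closed region they were 18 of 196 (9.18%) and 16 (8.16%). The shares at 10 CPM or more were 13.04% and 14.4% for 951 genes in shared regions with an ATAC peak, and 50.5% and 50.6% for 14221 genes in no H3K27me3 region. Of the 153 genes, 8 had another start in a shared region with an ATAC peak, and their other starts outside H3K27me3 regions were not counted. The classes overlap: 15122 genes had a start in no H3K27me3 region, and 14829 of them had no start inside one. No class made only of genes without promoter ATAC peaks was compared.

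**Figure D5:**
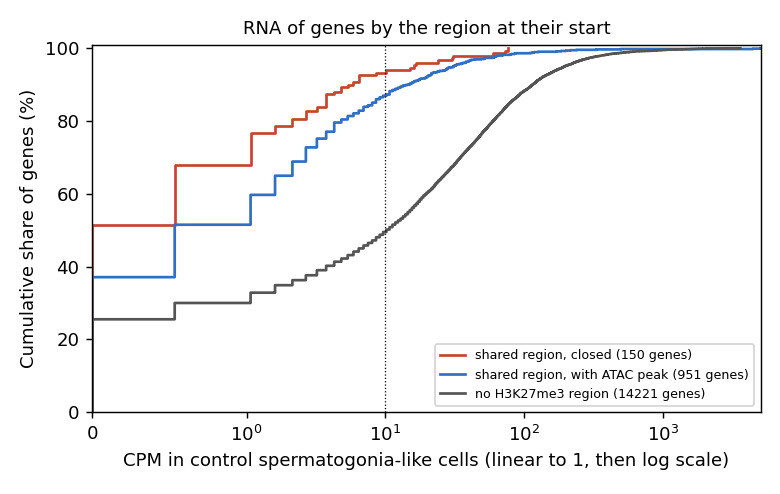
Cumulative share of genes (%) against CPM in control spermatogonia-like cells (linear to 1, then log scale) by the region at the gene's start; the dotted line marks 10 CPM. The closed curve starts at 51.3% of genes with 0 UMIs and passes 10 CPM with 6.67% above it.

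Some of the 10 stood above free RNA and others did not. Trim71, an RNA-binding protein of germ and stem cells, was at 75.9 CPM (95% Poisson interval 63.9 to 89.5) in control and 77.2 (63.3 to 93.2) in cKO, against 0.83 in free RNA of control. Dab2ip, a Ras GTPase activator, was at 72.7 and 80.8 CPM, against 9.44 in free RNA. Gng13, a G protein subunit, was at 30.5 and 45.04 CPM, against 0.14. Tanc1 at 24.1 and Cntfr at 15.0 CPM in control were also above their free RNA, at 4.72 and 5.55. Ace, an angiotensin-converting enzyme with a testis form, was at 59.3 CPM in the cluster and 159 in free RNA. Ccdc42 at 29.9, Prss21 at 16.6 and Pomc at 16.0 CPM lay below their free RNA, at 99.2, 45.25 and 31.5, and Myt1l at 10.2 lay beside 9.99. The part of free RNA in the values of those 5 was not tested. All intervals cover counting error only.

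The regions that hold the starts of 3 of the genes above free RNA were covered to different extents by the libraries, and a peak at the start itself was not required. At Trim71 (chr9:114563732-114567315) summed signal was 90043 and 83878 in control and 65193, 34052 and 104268 in cKO, with an ATAC peak 918 bp away. At Dab2ip (chr2:35545658-35572365) it was 546978 and 631955 in control and 407765, 505944 and 798805 in cKO, with an ATAC peak 240 bp away. At Gng13 (chr17:25713141-25721632) it was 244944 and 213427 in control and 114745, 135322 and 246753 in cKO, with the nearest ATAC peak 5524 bp away. For Tanc1 and Cntfr that distance was 8028 and 4633 bp. The summed signals of the genotypes overlapped at all 3. The genes of the printed promoters were low: Fgf4, Hand2, Gfi1b and Foxi2 had 0 UMIs in control spermatogonia-like cells, Nhlh1 had 1, and Pou5f1 had 9 in control and 11 in cKO.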

How the data were processed

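The authors deposited 1 peak list per chromatin library on mm10, the build given in the submitters' processing notes, which name cutadapt and Bowtie2 for both assays, SAMtools, deepTools and SEACR for CUT&Tag, and MACS2 for ATAC-seq, without versions. H3K27me3 lists hold, as deposited, the summed signal and highest signal of each peak in coverage units; 4 of the 5 lists are named as downsampled and that of cKO 2 is not, and no source used here states how libraries were scaled to each other. The deposited ATAC lists hold a fold, a score and the −log10 of p and q values per peak, used here only as a filter in 1 alternative. Single-cell UMI counts were deposited for all barcodes (Cell Ranger, per the file headers).

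Peaks were merged and overlapped in Python 3.11.15, and bedtools 2.31.1 gave the same 1238 regions. A library's signal in a region is the sum over its peaks there. limma was run on all 3555 shared regions with Benjamini-Hochberg adjustment; the fit and the overlap rule were tested on simulated data. Cells had at least 3000 UMIs, 500 genes and at most 10% mitochondrial counts; doublets called by Scrublet were removed, which left 10393 control and 7741 cKO cells, and scanpy 1.11.5 clustered them. CPM are summed UMIs scaled to a common total. Gene starts and sequences came from RefSeq GRCm38.p6, an mm10-level assembly. The set of starts used lacked chromosome 18 and some genes elsewhere. The regions named are the 10 highest by mean rank of signal, the 5 longest, the 5 farthest from ATAC peaks, up to 4 per gene list and, by genotype, the 3 in each direction with the smallest p among those whose libraries do not overlap; others, among them the regions of expressed genes and those on X, were chosen after their values were seen. Members and lists were chosen with earlier results of these data known.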

Additional observations from a re-analysis of the deposited data

How the results depend on the processing

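The number of closed regions followed the peak lists. It was 117 when each library had to cover at least 50% of the merged region, 702 with no ATAC peak within 5000 bp, 816 from the upper 75% of each H3K27me3 list and 1983 with ATAC peaks of −log10 q of at least 3, against 1238. Leaving out 1 H3K27me3 library gave 1419 to 1975, the highest without cKO 1, and leaving out 1 ATAC library gave 1247 to 1641; merging peaks up to 1000 bp apart gave 918. The number of regions called was 0 in every fit except that with the replicate number as a block (7, of which 2 were closed) and the fits that left out 1 library (0 to 1: 1 closed region without control 2 and 1 other region without cKO 1). No control shares the number of cKO 3, so in the block fit cKO 3 adds nothing to the genotype difference. The median difference of closed regions was 0.086 both in the block fit and in the fit without cKO 3. Whether the replicate numbers pair the libraries is not known. Correlations of the libraries' deviations from their genotype means ran from -0.11 to 0.11. With 2 controls these values mirror each other, so they cannot decide it. The median log2 difference of closed regions was -0.33 with no centring, where that of all shared regions was -0.30, 0.012 with quantile normalization, -0.0032 on the highest signal, 0.011 per covered base, 0.086 with the replicate block, -0.0095 without the weakest 25% of regions, and -0.027 to 0.086 leaving out 1 library, so its sign is not settled. The region near Gabbr2 turned from -1.27 to 0.033 on the highest signal; the cause was not tested. Genes at 10 CPM or more within 1000 bp of a closed region numbered 18 in control and 16 in cKO spermatogonia-like cells, and 12 and 12 in all cells, against 10 and 9, and 6 and 6. At a minimum of 1000 UMIs no cluster was named spermatogonia-like, so that alternative gave no value there, and Scrublet marked 0 of 67559 control barcodes, so it did not work at that minimum. The cKO-minus-control difference in the share of signal kept its sign in the alternatives run but fell from 0.70 to 0.28 percentage points without cKO 1, 0.36 with no ATAC peak within 5000 bp and 0.38 with 50% coverage. That in covered length moved from -1710 bp to -544 bp without control 2, -1035 bp without cKO 1, -768 bp with 50% coverage, -2875 bp without control 1 and -2773 bp without cKO 3, also with no change of sign.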
